A study of Mus musculus with 6 samples.

Results

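Genes of the cell cycle were followed in cells sorted from mouse hearts with and without a myocardial infarction (MI). They are 38 genes of S phase and mitosis, chosen by gene symbol, and all 38 were found in the deposited table of 45038 genes. Of these, 13 act in S phase, when DNA is copied, and 25 in mitosis, when the copies are separated. The table gives FPKM, in which fragments are taken relative to the length of the transcript and to all mapped fragments, a level per length that allows genes to be set side by side.

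The 6 libraries came from C57BL/6 mice that carried Tie2-Cre and a Rosa-LSL-tdTomato reporter, in both groups. Cre under the Tie2 promoter switches on tdTomato in endothelium and some blood cells, and a marked cell and its descendants keep the label. The 3 MI libraries were made from infarcted tissue taken 3 weeks after the left anterior descending coronary artery had been tied, and the 3 Normal libraries from normal left ventricle, labelled as having had no MI surgery. The protocol attached to the samples of both groups describes mice of 6 to 8 weeks. Cells that carried tdTomato and lacked the macrophage antigen F4/80 were sorted, and their RNA was amplified by T7 transcription before sequencing. Libraries are named by the numbers in their titles, Ms1535, Ms1537 and Ms1608, which both groups share. Nothing else in the labels says how the 3 libraries of a group differ, so a p-value speaks only of the spread among these libraries, part of which may be technical.

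Cells that enter the cycle activate cyclin D kinases, which release E2F factors from the Rb family. E2F then drives the genes for copying DNA, among them the Mcm helicase, the Pcna clamp and the enzymes that supply nucleotides. Later MuvB complexes with B-Myb and Foxm1 switch on the genes of the spindle and of chromosome segregation, and the kinase made of cyclin B and Cdk1 starts mitosis. Most endothelial cells of the adult heart rest outside the cycle, whereas leukocytes and fibroblasts that enter an infarct can divide.

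The depth implied by the low values was 32.1 to 45.6 M (mega) fragments per library, above the approximate number of reads in the labels' protocol, and the difference was not reconciled. On a gene of 2 kb, 3 fragments correspond to 0.0329 to 0.0467 FPKM, which covers counting error only, since amplified fragments are not separate molecules. Of the 228 member values, 11 lay under 3 implied fragments and 6 of those were listed at 0. Normal Ms1608 stood apart and went against its endothelial label. Its correlations with the other libraries across genes were 0.544 to 0.685, against 0.798 to 0.917 among the other 5. Its 15 endothelial markers summed to 103 FPKM, where Normal Ms1535 and Ms1537 had 6575 and 7366 and the MI libraries 1299 to 5843. Kdr, the main endothelial VEGF receptor, was at 0.486 FPKM there beside 73.9 and 44.6 in the other Normal libraries, and Ptprc, which encodes the leukocyte antigen CD45, at 174 against 3.13 and 4.72. Pecam1, the adhesion protein CD31 of endothelium and of leukocytes, was highest there, at 28.3 FPKM, with 19.3 and 13.2 in the other Normal libraries. The counts and tests are therefore also given without Normal Ms1608. In bulk samples fewer cycling cells and less RNA per cycling cell cannot be told apart.

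The promoters of 4 members are shown because they carry sequence motifs of cell cycle regulators. Each is the 250 bases before the start of the gene in RefSeq (GRCm38.p6), printed 5′ to 3′ on the strand of the gene, with matches to the motifs in capitals. The motifs searched, on both strands, were CCAAT, read by the factor NF-Y (ATTGG on the other strand); TTTGAA, the cell cycle homology region or CHR element bound by MuvB complexes (TTCAAA on the other strand); and TTTGGCGC or TTTCGCGC, sites of E2F type. Ccnb1 (cyclin B1) stands for the mitotic cyclins, at chr13:100786487-100786736 on the minus strand. Mcm6 stands for the helicase, at chr1:128359706-128359955 on the minus strand. Cdk1, the kinase partner of cyclin B, lies at chr10:69352913-69353162 on the minus strand, and Ube2c, a ubiquitin enzyme of anaphase, at chr2:164769679-164769928 on the plus strand.
Ccnb1: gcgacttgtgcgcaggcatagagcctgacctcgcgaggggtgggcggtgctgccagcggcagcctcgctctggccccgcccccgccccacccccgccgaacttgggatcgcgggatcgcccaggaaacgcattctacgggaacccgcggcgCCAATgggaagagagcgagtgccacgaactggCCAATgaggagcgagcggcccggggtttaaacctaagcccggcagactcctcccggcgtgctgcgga
Mcm6: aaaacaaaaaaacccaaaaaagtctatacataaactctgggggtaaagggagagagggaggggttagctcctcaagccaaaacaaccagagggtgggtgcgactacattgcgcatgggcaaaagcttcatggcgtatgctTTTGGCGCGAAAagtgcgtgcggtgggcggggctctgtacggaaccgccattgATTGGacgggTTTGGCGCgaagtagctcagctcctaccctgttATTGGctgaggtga
Cdk1: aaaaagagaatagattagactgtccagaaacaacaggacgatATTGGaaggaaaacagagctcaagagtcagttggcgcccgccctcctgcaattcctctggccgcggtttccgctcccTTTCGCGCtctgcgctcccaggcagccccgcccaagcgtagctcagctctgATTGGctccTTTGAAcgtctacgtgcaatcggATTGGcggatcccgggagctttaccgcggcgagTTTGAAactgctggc
Ube2c: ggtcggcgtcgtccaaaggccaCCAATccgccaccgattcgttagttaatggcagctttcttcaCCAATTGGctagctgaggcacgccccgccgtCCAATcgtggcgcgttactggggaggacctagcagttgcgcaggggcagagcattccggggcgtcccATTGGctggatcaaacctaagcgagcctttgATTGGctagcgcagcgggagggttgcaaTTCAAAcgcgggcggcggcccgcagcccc

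The Mcm6 window held 3 matches to the E2F type, starting 110, 106 and 47 bases before the start, of which the first 2 overlap each other on opposite strands. It held 2 CCAAT matches and none to the CHR element. Cdk1 was the mitosis member with an E2F match, 131 bases before the start, and it also held 2 CHR and 3 CCAAT matches. Ube2c held 1 CHR match, 29 bases before the start, and 6 CCAAT matches, 2 of which overlap each other. Ccnb1 held 2 CCAAT matches and no match to TTTGAA or to the E2F type. Other forms of these motifs were not searched, so the missing match does not show that Ccnb1 lacks a CHR element.

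A promoter entry was found for 30 of the 38 members, 11 of S phase and 19 of mitosis, and in these the window was extended to 50 bases after the start. The CHR element, as TTTGAA, was in 14 of 19 mitosis promoters (73.7%) and in 1 of 11 S phase promoters (9.09%), that of Mcm2. Among all 27025 promoters of the same length, 18.1% held it. All 14 of those mitosis promoters also held CCAAT, a pair of motifs found in 7.12% of all promoters. The E2F type was in 4 of 11 S phase promoters (36.4%), all of Mcm genes (Mcm3, Mcm5, Mcm6 and Mcm7), and in 0.833% of all promoters. Birc5, Nusap1, Ccne1, Tk1 and Tyms held none of the 3 motifs in this window. A match is a description of the letters and not a bound site, and other forms of the motifs were not searched.

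**Figure D1:**
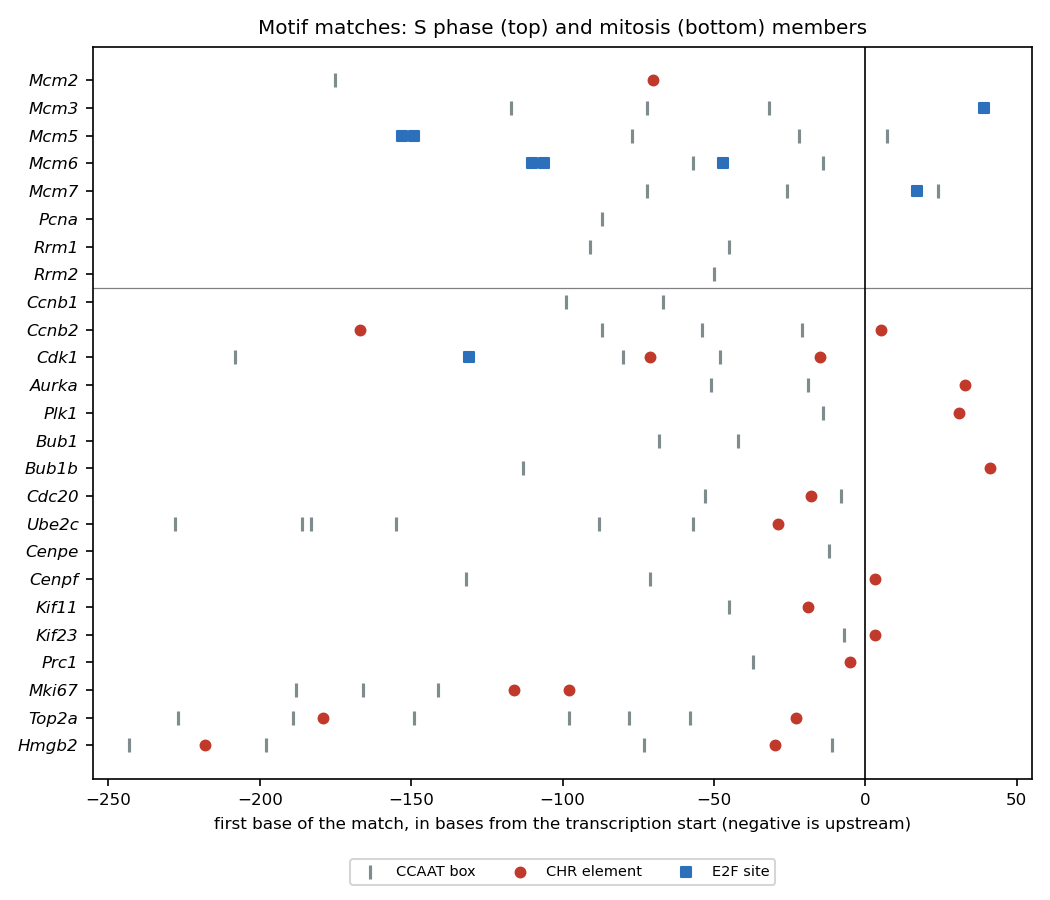
Positions of motif matches in the promoter windows of members with an entry, in bases relative to the gene start, with S phase and mitosis members set apart. Of the 30 members with an entry, Birc5, Nusap1, Ccne1, Tk1 and Tyms had no match and are not drawn. The CHR matches lie in 14 of 19 mitosis promoters, and the E2F type matches in 4 Mcm promoters and that of Cdk1.

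S phase and mitosis genes had higher levels in the MI libraries than in the Normal ones, but the spread between libraries was large and no member passed the test. The mean FPKM was higher in MI for 37 of the 38 members, all but Aurka, with a median ratio of the group means of 3.46. This count was not made over all genes, but the whole table leans the same way. In log2(FPKM + 1) the difference was positive for 64% of genes above 0 in any library and for 87.2% of those tested below. In 15 of 38 members (39.5%) every MI library lay above every Normal library, and in 0 did every MI library lie below. Among the 30727 genes with a value above 0 in any library, 12.6% had all MI libraries above all Normal ones, and 2% had them all below. The 30727 include genes listed at 0 in an MI library, which cannot be higher in this way. This base, and each share of genes above 0 below, is therefore not matched to the members in level. By role, these 15 were all 6 helicase genes, Tk1, Ccne2, Ccnb1, Ccnb2, Cdk1, Plk1, Cenpe, Nusap1 and Mki67, that is 8 of 13 S phase members and 7 of 25 mitosis members. The highest of the 6 libraries was an MI library for 34 members, a count not made over all genes. That library was MI Ms1535 for 18 and MI Ms1537 for 12 of them. Normal Ms1608 was the lowest library for 17 members, yet it was the highest for Pcna and Rrm1.

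**Figure D2:**
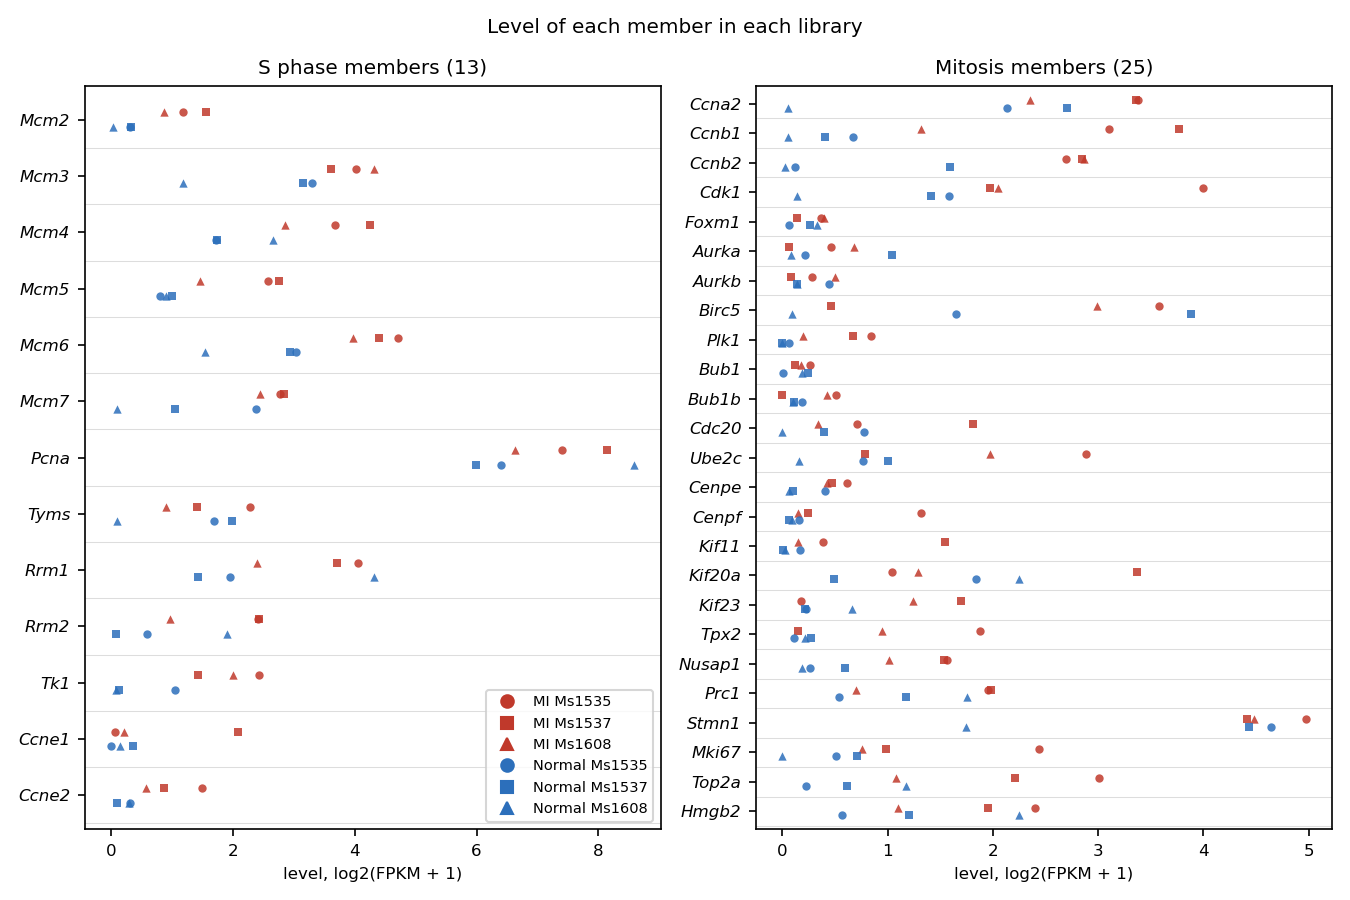
Level of each of the 38 members in the 6 libraries as log2(FPKM + 1), with S phase members on the left and mitosis members on the right. Each point is 1 library, with red for MI and blue for Normal and a shape for each number. The red points lie furthest right for 34 members, and Pcna and Rrm1 are highest in Normal Ms1608.

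The test used limma on log2(FPKM + 1) and took the 10168 genes with 1 FPKM or more in 3 or more libraries. It included 22 members (10 of S phase and 12 of mitosis), and the other 16 were too low. With adjustment over all tested genes, 0 of 22 members passed a limma adjusted p of 0.05 (lowest 0.245, highest 0.848), where 0.00983% of all tested genes passed. At an unadjusted p under 0.05 there were 7 members, all higher in MI (Ccnb2, Ccnb1, Tk1, Nusap1, Mcm6, Mcm5 and Top2a), where 16.1% of tested genes were higher and 0.207% lower. Of these 7, Ccnb1 and Nusap1 had no Normal library at 1 FPKM and passed the filter through MI alone, so they had to come out higher. The difference, MI minus Normal in log2(FPKM + 1), was positive for all 22 members tested, from 0.28 to 2.35. Its median was 1.30 over these 22, 1.40 for S phase and 1.13 for mitosis members, beside 0.78 over all tested genes, of which 87.2% were positive. The same 2 members enter this median, which therefore only describes the members tested. Over all 38 members, with no filter, the median was 0.77, beside 0.04 over all genes above 0. Most of the latter lay under 1 FPKM in any given library, and this scale understates differences of low genes. The 2 medians are therefore not matched in level. After scaling by median ratios, upper quartiles or quantiles the median of the 22 members was 0.62, 0.74 and 0.29, against 0.02, 0.20 and -0.05 for all tested genes. Of all tested genes, 50.9%, 60.2% and 47.5% were positive under these scalings in turn, and 15 of the 22 members were positive under all 3. The other 7, negative under 1 scaling or more, were Pcna, Tyms, Rrm1, Birc5, Kif20a, Prc1 and Hmgb2.

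Without Normal Ms1608 0 members passed either (lowest limma adjusted p = 0.0731, for Ccnb2), whereas 4.51% of all tested genes did. At an unadjusted p under 0.05 there were then 11 members, all higher in MI, where 30.8% of tested genes were higher and 0.738% lower. The filter was still that of all 6 libraries. Of these 11, Ccnb1, Nusap1, Top2a and Rrm2 reached 1 FPKM in no remaining Normal library. Their direction, also in the medians below, is therefore partly built in. The members with no overlap between groups became 19 of 38, where 24.5% of genes above 0 were higher and 5.78% lower in this way, and they included Pcna, Rrm1, Rrm2 and Top2a in addition. S phase members had a median difference of 1.36 and mitosis members one of 0.94, beside 0.83 for all tested genes. With all 6 libraries, the scalings left 8, 9 and 5 members without overlap in the order given above, beside 4.44%, 5.14% and 4.4% of genes above 0. The 5 that remained after quantile scaling were Ccnb1, Nusap1, Mcm2, Mcm6 and Plk1. Without Normal Ms1608 and with scaling on median ratios, 12 members were higher without overlap and 2, Stmn1 and Tyms, lower, beside 10.8% and 14.8% of genes above 0. On quantiles it was 10 higher and the same 2 lower, beside 11% and 12.9%. These 2 settings were chosen after seeing the data.

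**Figure D3:**
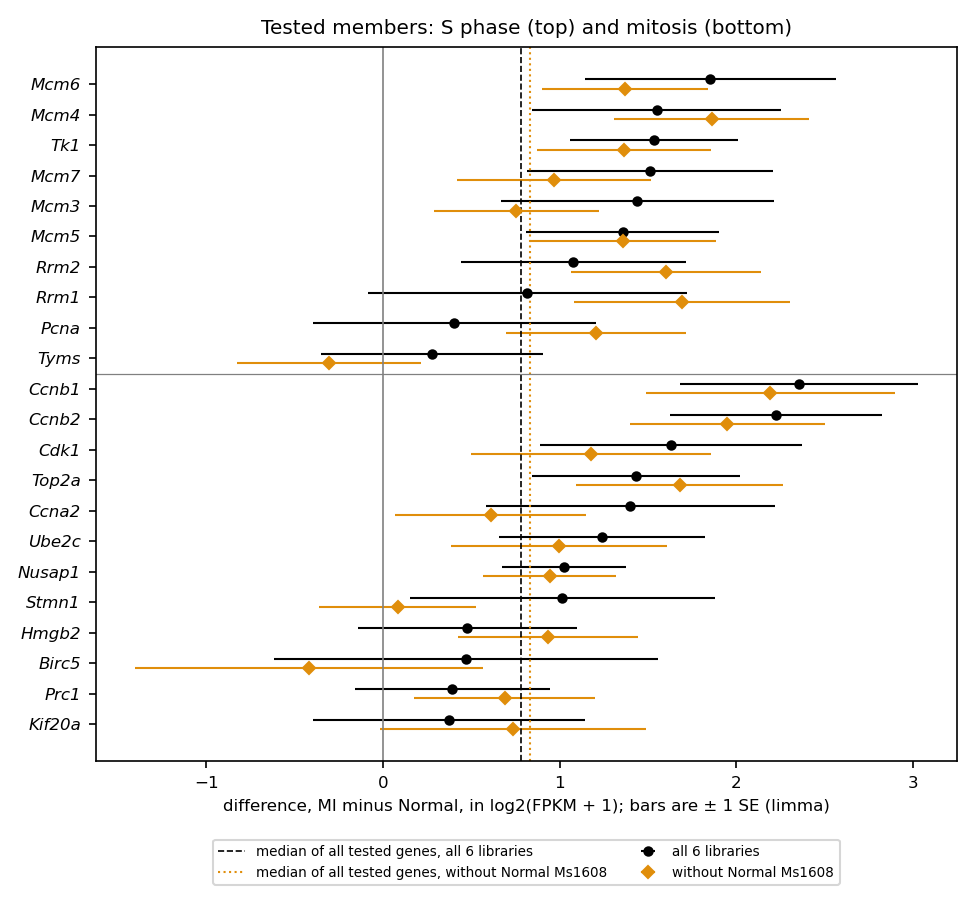
Difference between MI and Normal in log2(FPKM + 1) for the 22 tested members, with all 6 libraries and without Normal Ms1608. Bars are 1 standard error on either side, and the vertical lines mark 0 and the medians of all tested genes, 0.78 with all 6 libraries and 0.83 without Normal Ms1608. The B cyclins lie furthest right, and Tyms and Birc5 fall below 0 without Normal Ms1608.

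The Mcm genes encode the 6 subunits of the ring that unwinds DNA at the fork, and each of them was higher in all MI libraries than in any Normal library. Mcm6 had 25.2 FPKM in MI Ms1535, 20.0 in MI Ms1537 and 14.6 in MI Ms1608, and 7.20, 6.67 and 1.90 FPKM in Normal with the numbers in the same order, which is followed for every gene below. Mcm3 had 15.1, 11.3 and 18.9 FPKM in the MI libraries against 8.82, 7.90 and 1.26 FPKM. Mcm4 had 11.7, 18.02 and 6.20 FPKM against 2.31, 2.32 and 5.33 FPKM, so its lowest MI library lay just above Normal Ms1608. Mcm7 had 5.81, 6.16 and 4.44 FPKM against 4.19, 1.08 and 0.0651 FPKM, and Normal Ms1535 came close to the MI values. Reads of Mcm7 may be shared with Cops6 and Ap4m1, which overlap it on the other strand. Mcm5 had 4.97, 5.74 and 1.74 FPKM against 0.745, 1.01 and 0.878 FPKM. Mcm2 was the lowest of the 6, at 1.26, 1.94 and 0.821 FPKM against 0.245, 0.260 and 0.0167 FPKM, too low to be tested.

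Mcm6 had a mean of 19.9 ± 5.29 FPKM for MI and 5.26 ± 2.92 FPKM for Normal (SD, n = 3 each), with a log2 difference of 1.85 (limma, SE 0.71, adjusted p = 0.268). The 5 Mcm genes tested had log2 differences of 1.36 to 1.85, all of them positive after each of the 3 scalings of the 6 libraries. That of Mcm3 was negative, at lowest -0.24, in 2 of 18 settings, those that left out Normal Ms1608 and also scaled the values. The difference of Mcm3 was 1.44 with all libraries and 0.76 without Normal Ms1608 (limma adjusted p = 0.359 and 0.275), and that of Mcm7 was 1.51 and 0.97. That of Mcm4 went from 1.55 to 1.86 (limma adjusted p = 0.307 and 0.0797). Of the 6 genes, 3 were without overlap when scaled on median ratios, 3 on upper quartiles and 2 on quantiles.

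Pcna, the sliding clamp of the replication fork, was the most abundant member, and unlike those of the helicase genes its groups overlapped. It was at 168, 282 and 98.4 FPKM in the MI libraries, with 83.1, 62.3 and 385 FPKM in Normal. Normal Ms1608 held the highest value, while every MI library lay above Normal Ms1535 and Ms1537. Its log2 difference was 0.40 (limma, SE 0.80, adjusted p = 0.821), 1.21 without Normal Ms1608 (limma adjusted p = 0.149), -0.63 on median ratios, -0.34 on upper quartiles and 0.08 on quantiles. Annotated copies of Pcna exist, so its reads may be split between loci.

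Ribonucleotide reductase, which makes the building blocks of DNA, had overlapping groups in both its subunits. Rrm1 had 15.6, 12.1 and 4.25 FPKM in the MI libraries, with 2.89, 1.70 and 18.9 FPKM in Normal. Rrm2, the subunit made in S phase, had 4.32, 4.37 and 0.957 FPKM against 0.502, 0.0568 and 2.74 FPKM. In both genes the MI libraries lay above Normal Ms1535 and Ms1537. Normal Ms1608 was the highest library for Rrm1, whereas for Rrm2 it lay above MI Ms1608 only. Their log2 differences were 0.82 and 1.08, and 1.69 and 1.60 without Normal Ms1608 (limma adjusted p = 0.114 and 0.0984 without it).

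Tk1, the thymidine kinase of S phase, was the only gene of nucleotide supply whose groups were apart with all 6 libraries as deposited. Under each of the 3 scalings its groups overlapped too. It had 4.36, 1.68 and 3.01 FPKM in the MI libraries, with 1.06, 0.0906 and 0.0540 FPKM in Normal, a log2 difference of 1.53 (limma, SE 0.48, adjusted p = 0.247). Its neighbour Afmid overlaps it on the other strand. Tyms, which makes thymidylate, had 3.88, 1.66 and 0.878 FPKM against 2.24, 2.95 and 0.0687 FPKM. Its groups overlapped, and its log2 difference was 0.28, or -0.30 without Normal Ms1608. The E cyclins, which start S phase with Cdk2, were low and not tested. Ccne1 was above 1 FPKM in MI Ms1537 only, with 0.0464, 3.24 and 0.158 FPKM in MI, and in Normal it was listed at 0, then at 0.283 and 0.103 FPKM. Ccne2 was higher in every MI library, at 1.82, 0.827 and 0.488 FPKM against 0.241, 0.0723 and 0.227 FPKM.

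Among mitosis genes the B cyclins, which activate Cdk1 at the entry into mitosis, had the largest differences of the 22 members tested, although Ccnb1 had to differ by the way it passed the filter. Ccnb1 had 7.58, 12.7 and 1.49 FPKM in the MI libraries, with 0.591, 0.323 and 0.0349 FPKM in Normal, where every value was below the lowest of MI. Ccnb2 had 5.46, 6.20 and 6.31 FPKM against 0.0843, 2.01 and 0.0196 FPKM, so its MI values lay close together and above every Normal value. Its means were 5.99 ± 0.463 FPKM for MI and 0.706 ± 1.13 FPKM for Normal (SD, n = 3 each). The log2 difference was 2.35 for Ccnb1 (SE 0.67) and 2.22 for Ccnb2 (SE 0.60), with a limma adjusted p of 0.245 for both, and 2.19 and 1.95 without Normal Ms1608 (limma adjusted p = 0.0916 and 0.0731). Both B cyclins have annotated copies in the genome, so reads may be split between loci.

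Cdk1 was highest in MI Ms1535, and its lowest MI library still lay above every Normal library. Its values were 15.0, 2.93 and 3.15 FPKM in the MI libraries, with 1.99, 1.67 and 0.0984 FPKM in Normal, a log2 difference of 1.63 (limma, SE 0.74, adjusted p = 0.305). Ccna2, cyclin A2, which acts in both S phase and mitosis, had 9.40, 9.25 and 4.12 FPKM against 3.39, 5.54 and 0.0347 FPKM. Its groups overlapped through MI Ms1608 and Normal Ms1537, and its log2 difference of 1.40 (limma, SE 0.82, adjusted p = 0.393) was 0.61 without Normal Ms1608. Foxm1, a transcription factor of the mitotic programme, was under 1 FPKM everywhere, at 0.286, 0.0989 and 0.318 FPKM in the MI libraries, with 0.0436, 0.197 and 0.252 FPKM in Normal.

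The mitotic kinases and checkpoint genes were mostly low, and the groups overlapped in 5 of the 6. Plk1, the polo kinase of centrosome and spindle, was at 0.794, 0.590 and 0.142 FPKM in MI, at 0.0454 FPKM in Normal Ms1535, and listed at 0 in Normal Ms1537 and Ms1608. Aurka, the Aurora kinase of the spindle poles, had 0.380, 0.0435 and 0.598 FPKM against 0.164, 1.05 and 0.0550 FPKM, with its highest value in Normal Ms1537. Aurkb, the kinase of the chromosomal passenger complex, had 0.212, 0.0583 and 0.418 FPKM against 0.362, 0.0999 and 0.101 FPKM. Bub1 and Bub1b, of the spindle checkpoint, stayed under 0.5 FPKM in all libraries, and Bub1b was listed at 0 in MI Ms1537. Birc5, or survivin, belongs to the same complex as Aurkb and was the one gene of these 6 above the filter. It had 10.9, 0.381 and 6.96 FPKM against 2.13, 13.8 and 0.0676 FPKM, with the extremes in Normal libraries, and a log2 difference of 0.47 (limma, SE 1.09, adjusted p = 0.848) that was -0.42 without Normal Ms1608.

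Ube2c and Cdc20 serve the ubiquitin ligase APC/C, which ends mitosis by marking the B cyclins for destruction. Ube2c had 6.38, 0.728 and 2.92 FPKM in the MI libraries, with 0.697, 1.01 and 0.116 FPKM in Normal, so that MI Ms1537 lay within the Normal values. Its log2 difference was 1.24 (limma, SE 0.58, adjusted p = 0.314). Cdc20 had 0.639, 2.51 and 0.267 FPKM in the MI libraries, with 0.712 and 0.319 FPKM in Normal Ms1535 and Ms1537; Normal Ms1608 was listed at 0. Both overlap a gene on the other strand, Tnnc2 for Ube2c and Elovl1 for Cdc20.

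Of the 9 genes of spindle, kinetochore and cytokinesis, Nusap1 and Cenpe had no overlap between groups. Nusap1, which bundles spindle microtubules, had 1.95, 1.90 and 1.01 FPKM in the MI libraries, with 0.198, 0.506 and 0.140 FPKM in Normal, a log2 difference of 1.02 (limma, SE 0.35, adjusted p = 0.252). Cenpe, a kinetochore motor, had 0.529, 0.384 and 0.342 FPKM against 0.321, 0.0705 and 0.0454 FPKM. Stmn1, a destabiliser of microtubules, was the most abundant mitosis member, with 30.4, 20.3 and 21.3 FPKM against 24.1, 20.6 and 2.35 FPKM. Normal Ms1535 and Ms1537 lay within the range of the MI libraries, and its log2 difference of 1.01 (limma, SE 0.86, adjusted p = 0.547) was 0.08 without that library (limma, SE 0.44, adjusted p = 0.897).

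The other spindle genes varied widely among the MI libraries. Kif11, the motor that pushes spindle poles apart, had 0.306, 1.92 and 0.112 FPKM in the MI libraries, with 0.124, 0.00617 and 0.0172 FPKM in Normal. Kif20a, a motor of the central spindle, had 1.06, 9.35 and 1.44 FPKM against 2.57, 0.405 and 3.76 FPKM, and Cdc23 overlaps it on the other strand. Both were highest in MI Ms1537, as was Kif23, a cytokinesis motor, at 0.127, 2.23 and 1.36 FPKM against 0.170, 0.159 and 0.583 FPKM. Tpx2, which starts microtubules at the spindle, had 2.67, 0.112 and 0.933 FPKM against 0.0766, 0.208 and 0.162 FPKM, and Cenpf, a kinetochore protein, had 1.50, 0.185 and 0.109 FPKM against 0.116, 0.0444 and 0.0627 FPKM. These 2 were highest in MI Ms1535, and the 3 motors in MI Ms1537. Prc1, which bundles the midzone, had 2.87, 2.96 and 0.627 FPKM against 0.452, 1.26 and 2.36 FPKM.

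Mki67, the gene of the proliferation antigen Ki-67, was above 1 FPKM in 1 of the 6 libraries. It had 4.44, 0.980 and 0.693 FPKM in MI, then 0.426 and 0.631 FPKM in Normal Ms1535 and Ms1537 (listed at 0 in Normal Ms1608). Each MI value lay above each Normal value, but MI Ms1608 and Normal Ms1537 were close, and the gene was too low to be tested. Top2a, the topoisomerase that untangles replicated chromosomes, had 7.07, 3.64 and 1.11 FPKM against 0.168, 0.533 and 1.25 FPKM. Normal Ms1608 lay just above MI Ms1608, and the log2 difference was 1.43 (limma, SE 0.59, adjusted p = 0.284), or 1.68 without Normal Ms1608 (limma adjusted p = 0.107). Hmgb2, a chromatin protein of dividing cells, had 4.29, 2.88 and 1.14 FPKM against 0.485, 1.31 and 3.75 FPKM, with Normal Ms1608 above 2 of the MI libraries. Its log2 difference was 0.48 (limma, SE 0.62, adjusted p = 0.711), and 0.93 without Normal Ms1608.

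Summed over members, both phases were higher in each MI library than in each Normal library once Pcna was left out of S phase. These are sums of FPKM as deposited, and no scaled sums were made. The whole table leans the same way, with 87.2% of tested genes positive. Genes at 1 FPKM or more numbered 10317 to 11450 in the MI libraries and 6882 to 8930 in the Normal ones. The 12 other S phase members summed to 94.2, 87.0 and 56.4 FPKM in MI and to 30.4, 24.4 and 31.6 FPKM in Normal. With Pcna the sums were 263, 369 and 155 FPKM against 114, 86.7 and 416 FPKM, and Normal Ms1608 was the highest library. The 25 mitosis members summed to 115, 82.4 and 57.4 FPKM against 39.5, 52.0 and 15.5 FPKM, so MI Ms1608 and Normal Ms1537 were close. Stmn1 alone gave 24.1 FPKM of the sum of Normal Ms1535. The 24 other mitosis members summed to 84.5, 62.1 and 36.0 FPKM in MI and to 15.5, 31.4 and 13.1 FPKM in Normal. MI Ms1608 was the lowest MI library in both phases, and Normal Ms1608 was the lowest library in mitosis. In S phase without Pcna its sum was level with the other Normal libraries, but Rrm1 alone gave 18.9 FPKM of it, and 7 of the 12 members lay under 1 FPKM there, against 5 in each of the other Normal libraries. Ranked among the genes above 0 in a library, the median S phase member stood at the percentile 63.2 to 70.8 in the 6 libraries, with no order between groups. The median mitosis member stood at the percentile 50.5 to 58.1 in MI and 44.6 to 49.6 in Normal.

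**Figure D4:**
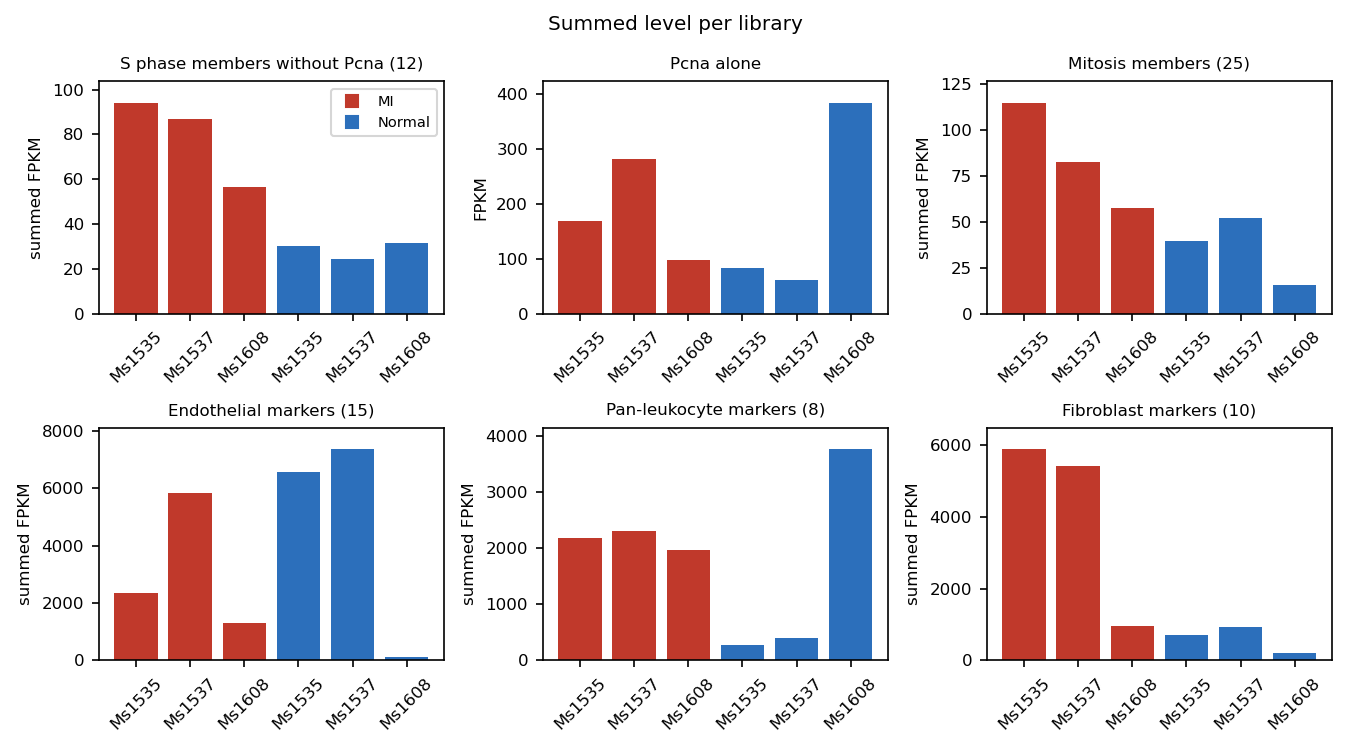
Summed FPKM in each of the 6 libraries, for the S phase members without Pcna, Pcna alone, the mitosis members and the endothelial, leukocyte and fibroblast markers. Bars are single libraries. The mitosis sums are 57.4 to 115 in MI and 15.5 to 52.0 in Normal, and the leukocyte sums are low only in Normal Ms1535 and Ms1537.

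Summed markers of leukocytes and of fibroblasts were also higher in each MI library than in Normal Ms1535 and Ms1537, the fibroblast sum of MI Ms1608 only narrowly, and single markers did not all follow. The 8 markers shared by leukocytes summed to 2191, 2310 and 1964 FPKM in MI and to 267, 395 and 3770 FPKM in Normal, and all 8 were at 1 FPKM or more in every library. The 12 T and NK cell markers summed to 418 to 1255 FPKM in the MI libraries, with 87.9, 354 and 1055 FPKM in Normal, and the 9 B and plasma cell markers to 702 to 6139 FPKM in the MI libraries, with 73.8, 69.2 and 1512 FPKM in Normal. The 10 macrophage and monocyte markers summed to 974 to 2406 FPKM in the MI libraries, with 167, 257 and 3098 FPKM in Normal, and the 7 neutrophil markers to 4536 to 12032 FPKM in the MI libraries, with 2474, 2083 and 13380 FPKM in Normal. The 10 fibroblast markers summed to 5897, 5423 and 970 FPKM in MI against 704, 924 and 191 FPKM. MI Ms1608 was the lowest MI library for them, as for both phases. It was also the lowest for the markers shared by leukocytes, the endothelial and the mural markers, but not for the other marker lists. The 15 endothelial markers summed to 2358, 5843 and 1299 FPKM in MI. Erythroid markers, 9 in number, summed to 438 to 9608 FPKM in MI and 1032 to 7233 FPKM in Normal. The 9 mural markers summed to 12.5 to 33.1 FPKM in MI and 0.718 to 27.5 FPKM in Normal, and the 9 cardiomyocyte markers to 149 to 1046 FPKM in MI and 9.09 to 829 FPKM in Normal. Markers listed at 0 were Fap and Nppa in Normal Ms1608, Myh11 and Cnn1 in 1 Normal library each, and Slc4a1, Gata1 and Klf1 of the erythroid list in 1 or 2 libraries each. Adgre1, which encodes the F4/80 antigen removed by the sort, was at 0.282 to 7.21 FPKM in MI and 0.00904 to 0.247 FPKM in Normal. The part of these cell types in the levels of the cell cycle genes was not tested.

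Other genes of the cell cycle, in 6 lists of 129 genes found in the table, had 0 genes past the limma threshold among the 75 tested. Of these, 16 were higher in MI at an unadjusted p under 0.05 and 0 lower, beside the 16.1% and 0.207% of all tested genes given above. Some of the 75, such as Tfdp2, Chaf1b, Cdca3 and Melk, had no Normal library at 1 FPKM and passed the filter through MI alone. They had to come out higher, so the counts and medians of the lists only describe the genes tested. The medians below stand beside 0.78 for all tested genes, of which 87.2% were positive. After quantile scaling the medians of the lists, in the order below, were -0.27, -0.94, -0.30, 0.05, 0.01 and -0.07, beside -0.05 for all tested genes. The D cyclins and their kinases, which lead cells into the cycle, had a median log2 difference of 0.58 over 6 tested genes. Ccnd3, the most abundant of them, had 61.1, 43.8 and 80.6 FPKM in the MI libraries, with 71.4, 36.2 and 126 FPKM in Normal, and Ccnd2 had 19.0, 12.3 and 7.62 FPKM against 5.22, 3.69 and 6.95 FPKM. Their limma adjusted p was 0.901 and 0.410. Genes of origin licensing and firing, which load the helicase on DNA, had a median of 0.00 over 8 tested genes, of which 4 were positive. Dbf4, an activator of the kinase that fires origins, had 1.43, 0.690 and 1.92 FPKM against 1.98, 3.05 and 23.2 FPKM, and Orc4, a subunit of the origin recognition complex, had 64.7, 4.18 and 18.4 FPKM against 11.4, 17.4 and 0.474 FPKM.

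The Rb, E2F and DREAM genes had a median of 0.68 over 11 tested genes, all positive. E2f1, an activator of S phase genes, had 33.0, 5.87 and 25.6 FPKM in the MI libraries, with 0.558, 3.31 and 0.198 FPKM in Normal with no overlap, a log2 difference of 3.20 (limma, SE 0.85, adjusted p = 0.245). Rb1, its repressor, had 142, 89.4 and 45.5 FPKM against 49.1, 47.9 and 59.3 FPKM. DNA polymerases and fork proteins had a median of 0.95 over 19 tested genes, 17 of them positive. Dut, which keeps uracil out of DNA, had 14.4, 10.7 and 6.75 FPKM against 2.76, 0.330 and 0.160 FPKM, a log2 difference of 2.64 (limma, SE 0.70, adjusted p = 0.245). Rpa2, which coats single-stranded DNA, had 18.8, 53.1 and 13.6 FPKM against 12.5, 9.51 and 24.4 FPKM, and its groups overlapped.

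Inhibitors of the cyclin kinases, which hold cells back, had a median of 1.05 over 5 tested genes, all positive. Cdkn2c, an inhibitor of Cdk4 and Cdk6, had 5.25, 5.78 and 1.45 FPKM in the MI libraries, with 0.0736, 1.48 and 0.0868 FPKM in Normal (log2 difference 1.72, limma adjusted p = 0.252). Cdkn1c had 47.6, 63.0 and 28.4 FPKM against 99.7, 72.6 and 0.374 FPKM, and its difference went from 1.05 to below 0 without Normal Ms1608, at -0.94. The list of other mitosis genes had a median of 0.63 over 26 tested genes, with 23 positive. Tacc3, which stabilises spindle fibres, had 18.2, 31.2 and 18.4 FPKM against 5.23, 2.04 and 0.362 FPKM, and Tuba1b, an alpha tubulin, had 359, 390 and 251 FPKM against 464, 235 and 218 FPKM. Without Normal Ms1608 2 of the 75 genes passed the limma threshold, both higher in MI, where 4.51% of all tested genes passed. These were Tacc3, with a log2 difference of 2.39 (limma adjusted p = 0.0440), and Cdkn2d, a further inhibitor of Cdk4 and Cdk6, with 2.59 (limma adjusted p = 0.0298), named after its values were seen. Neither passed once the values were also scaled on median ratios or quantiles. Cdkn2d had 24.0, 39.2 and 45.4 FPKM in the MI libraries, with 5.23, 4.73 and 17.0 FPKM in Normal.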

How the data were processed

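RNA was measured in 6 libraries, 3 MI and 3 Normal, grouped by the tissue in the labels. The authors deposited FPKM values per gene, made with STAR 2.4.2a and Cufflinks 2.2.1 on GRCm38, per the submitters' processing notes. How reads with several matches were handled, the annotation release and the strandedness are not given in the sources used here. Without the strand, reads of the 9 members that overlap a coding gene on the other strand (Mcm7, Tk1, Ccne2, Ccna2, Cdc20, Ube2c, Kif20a, Nusap1 and Prc1) cannot be told apart from that gene's, and 5 members (Pcna, Tyms, Ccnb1, Ccnb2 and Stmn1) have annotated copies.

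Depth was implied from low values, since 1 fragment is a fixed step per gene length. In genes with 1 annotated transcript over 1500 bases, 91.9% to 95.1% of these values lay within 0.1 of a whole number, with the step fitted to the same values. Of the gene identifiers, 98.6% were found in GENCODE on GRCm38. Motifs were searched in RefSeq promoters (GRCm38.p6) at the first start listed for a gene.

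MI was compared with Normal by limma 3.58.1 (R 4.3.3) on log2(FPKM + 1), with eBayes and its trend option. This scale understates differences of low genes. The group was the only term, with no further scaling, Benjamini-Hochberg adjustment and a threshold of 0.05. The filter was 1 FPKM in 3 libraries. The script was tested on simulated data. With 3 libraries against 3 the smallest p of an exact two-sided permutation test is 0.1, so none was used. Zeros may be failed estimates and are called listed at 0. Values and, where tested, full statistics are given for Mki67, Top2a, Pcna, Cdk1 and Ccnb1 and, in each of the 8 roles, for the member of highest mean FPKM and that of lowest unadjusted p. Other members are given by their values, ranges and counts. Of the other cell cycle lists, the gene of highest mean FPKM and that of lowest p are named. The members and lists were chosen with earlier results of these data known, so their direction is not independent evidence. Of the 229 genes in the other lists, 227 were matched, 3 of them by identifier. One further marker is not reported here.

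Other pseudocounts, filters, scalings, a block for the shared number and leaving out each library were also run, 17 settings in all. The shared numbers were not taken as pairs.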

Additional observations from a re-analysis of the deposited data

How the results depend on the processing

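No member passed the limma threshold in any of the 17 other settings. Over all tested genes 1 passed, and 1 to 459 did when 1 library was left out, with 459 without Normal Ms1608. That library changed the count most, and it also decided the calls of Tacc3 and Cdkn2d, since 0 to 2 other cell cycle genes passed when 1 library was left out. Without Normal Ms1608 and with median-ratio or quantile scaling on top, 2 settings chosen after seeing the data, 2 and 2 genes passed. The cause was not tested.

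The S phase median of 1.40 became 1.89 with a pseudocount of 0.1 and 0.59 with a pseudocount of 5, 0.61 when scaled on median ratios, 0.80 on upper quartiles and 0.29 on quantiles, 1.08 with no filter, 0.60 and 0.49 in the 2 added settings, and 1.17 to 1.53 when 1 library was left out. The mitosis median of 1.13 became 2.19 with a pseudocount of 0.1 and 0.57 with one of 5, 0.56 with no filter, 0.63 on median ratios, 0.66 on upper quartiles and 0.18 after quantile scaling, 0.40 and 0.17 in the 2 added settings, and 0.88 to 1.42 when 1 library was left out. The 15 members without overlap became 8, 9 and 5 under the 3 scalings, 12 and 10 in the added settings, where Stmn1 and Tyms were lower without overlap, and 16 to 21 when 1 library was left out, where 16.1% to 24.5% of genes above 0 were higher without overlap. Of the 22 tested members 12 were positive in all settings, a count not made over all tested genes. Besides those named below, Mcm3, Tyms, Rrm1, Kif20a and Prc1 were negative in some, at lowest -0.24, -1.20, -0.0760, -0.47 and -0.55.

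Of 433 log2 differences of 26 named genes over the settings, 34 changed sign, in 11 genes, and the cause was not tested. After median-ratio scaling these were Birc5 (-0.10), Hmgb2 (-0.22), Pcna (-0.63), Rb1 (-0.35), Rpa2 (-0.28) and Tuba1b (-0.85). After upper-quartile scaling they were Birc5 (-0.11), Pcna (-0.34), Rb1 (-0.0607) and Tuba1b (-0.56), and after quantile scaling Birc5 (-0.39), Hmgb2 (-0.42) and Tuba1b (-0.0695). When 1 library was left out, Birc5 ranged from -0.42 (without Normal Ms1608) to 1.48 and was also negative without MI Ms1535 (-0.15). Pcna ranged from -0.0979 (without Normal Ms1537) to 1.21 and Ccnd3 from -0.65 to 0.23 (without Normal Ms1608), with 0.0252 without MI Ms1537. Cdkn1c ranged from -0.94 (without Normal Ms1608) to 2.16 and Tuba1b from -0.0132 (without Normal Ms1608) to 0.53. In the added setting with median-ratio scaling these were Birc5 (-1.13), Ccna2 (-0.23), Cdkn1c (-1.90), Orc4 (-0.58), Rb1 (-0.19), Stmn1 (-0.86) and Tuba1b (-0.99). With quantile scaling they were Birc5 (-1.19), Ccna2 (-0.38), Cdkn1c (-1.77), Orc4 (-0.59), Rb1 (-0.0589), Stmn1 (-0.86) and Tuba1b (-0.68).

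A block for the shared library number left 1 gene and 0 members past the threshold, with medians of 1.40 and 1.13. Deviations of libraries with the same number correlated at -0.0517, 0.0979 and 0.0870, none over 0.1. Those of libraries with different numbers correlated at -0.115 to 0.104. The numbers were therefore not taken as pairs. Depth limits the low members: 33 of the 228 values lie under 10 implied fragments.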
